A study of Rattus norvegicus with 192 samples.

Results

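The 6 genes described here are Col3a1 (ENSRNOG00000003357), Fbn1 (ENSRNOG00000007302), Mgp (ENSRNOG00000005695), Tgm2 (ENSRNOG00000012956), Timp1 (ENSRNOG00000010208) and Tcf21 (ENSRNOG00000016700), chosen by name as fibroblast and matrix genes from 12563 gene IDs in the mRNA tables. They were read in the adipose tissue, kidney, liver and prefrontal cortex (PFC) of 24 male rats. The tested diet was whole egg, fed to 6 ZDF rats (fa/fa, which lack a working leptin receptor and become obese and diabetic) and to 6 lean rats (fa/+). The comparison diet was casein, fed to 6 ZDF and 6 lean rats. All rats were 6 wk old on arrival, ate their diet for 8 wk with protein and fat held equal, and were housed in pairs, so cage mates are not fully separate. QuantSeq libraries read the 3' end of polyadenylated transcripts in whole tissue pieces. In such bulk tissue, fewer cells of a type and less RNA per cell cannot be told apart.

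Genotype was taken from the table columns; the strain in the sample records is different for 12 of the 24 rats, so the strain of the records was also tried, in place of the column genotype in the fits that hold genotype and as a term beside diet within each table. In the tables of ZDF rats the records list 2 of 6 whole egg rats and 4 of 6 casein rats as ZDF, and in the lean kidney, adipose tissue and PFC they list 3 of 6 on each diet as ZDF. The lean liver table names 11 casein columns (6 from ZDF and 5 from lean rats) and no whole egg column, so the diet was not compared in the lean liver. The 89 libraries used held 30819 to 9284567 deposited counts (median 2010369), and 4 held under 200000. Levels are in CPM, the count of a gene scaled to a common library size with TMM, a factor that aligns most genes between libraries. A gene was called at an adjusted p (Benjamini-Hochberg over all genes of a table) under 0.05, an FDR of 5%. Symbols were known for 550 gene IDs, those that the study itself named.

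Fibroblasts and related stromal cells lay down and remodel the matrix that holds a tissue together. Col3a1 encodes the chain of type III collagen, a fibril of soft tissue, and Fbn1 encodes fibrillin-1, the backbone of elastic microfibrils, which also hold latent TGF-beta. Mgp encodes matrix Gla protein, a vitamin K-dependent inhibitor of calcification. Tgm2 encodes transglutaminase 2, which crosslinks matrix proteins, and Timp1 encodes an inhibitor of the metalloproteinases that digest matrix. Tcf21 encodes a transcription factor of mesenchymal progenitors, known in mice from the stroma of visceral fat and from kidney podocytes. More matrix expression is a usual feature of obese adipose tissue and of kidney fibrosis.

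Each of the 6 genes was picked by the study for a lower level on whole egg in 1 table of these same samples: Col3a1 in the ZDF kidney, Tgm2 in the lean kidney, Tcf21 in lean adipose tissue, Timp1 in ZDF adipose tissue, and Fbn1 and Mgp in the ZDF liver. The diet values in those tables are therefore not independent evidence of their direction. Col3a1, Fbn1, Mgp and Tgm2 were listed in all 8 tables. Timp1 was analysed in 6 tables, all but the ZDF kidney and the lean liver, and Tcf21 in 3, both adipose tables and the ZDF kidney.

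Some libraries stood apart from the rest of their tissue. In lean adipose tissue the libraries of whole egg rats 6 and 13 held 130 and 42.3 CPM of Adipoq, the adipocyte hormone adiponectin, against 2470 to 7350 CPM in the other 10, and 246 and 692 CPM of the epithelial gene Cdh1. The ZDF adipose library of whole egg rat 11 was the smallest of all, and 3 reads in it amount to 84.8 CPM. In the ZDF PFC the casein libraries of rats 3 and 5 were the smallest and held 622 and 212 CPM of Adipoq, against 4.99 to 25.3 CPM in whole egg rats. In the ZDF kidney the library of casein rat 5 held 138171 deposited counts. Values that rest on these libraries are given with and without them. In adipose tissue those left out as standing apart were all from whole egg rats. In ZDF adipose tissue the epithelial markers with a known ID also summed to as much as 388 CPM on casein (median 29.1). On whole egg they summed to as much as 242 CPM (median 57.7). The tissue labels could be checked by few markers: Adipoq for adipose tissue, Apoa1 (hepatocytes, 421 to 3530 CPM in ZDF livers) and Mbp (myelin, 1520 to 11600 CPM in the PFC, over both genotypes). Apoa1 also reached 1020 CPM on whole egg and 445 CPM on casein in ZDF adipose tissue, so it did not separate every library. No endothelial, mesothelial, kidney tubule, neuron or smooth muscle marker had a known ID, and of other stromal markers only Pdgfrb did, so that the 6 genes come from fibroblasts was not tested.

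The matrix genes were far higher in adipose tissue than in the other 3 tissues. Col3a1 ranged over 42.6 to 5590 CPM in 24 adipose libraries (median 2990), against 17 to 261 CPM in kidneys (median 64.6, n = 24), 46.7 to 140 CPM in livers (median 67.1, n = 17) and 12 to 462 CPM in the PFC (median 29.4, n = 24). Fbn1 had medians of 964 CPM in adipose tissue, 25.6 CPM in kidneys, 16.1 CPM in livers and 12 CPM in the PFC. Adipose over kidney, the log2 difference was 4.65 (SE 0.31, adjusted p = 4.6e-19) for Col3a1 and 4.56 (SE 0.31, adjusted p = 5.8e-19) for Fbn1, and over liver it was 4.59 (SE 0.35, adjusted p = 1.5e-15) and 5.15 (SE 0.36, adjusted p = 1.2e-16), all by limma. The adipose and PFC ranges of Col3a1 overlapped only through adipose rats 6 and 13.

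Mgp followed another order. Its medians were 574 CPM in adipose tissue (76.6 to 1690 CPM), 118 CPM in kidneys (41.8 to 467 CPM), 17.2 CPM in the PFC (9.9 to 71.1 CPM) and 11.6 CPM in livers (4.45 to 25.3 CPM). Kidney over liver, the log2 difference of Mgp was 3.25 (SE 0.23, adjusted p = 1.8e-17), where Col3a1 gave -0.38 (SE 0.24, adjusted p = 0.19), Fbn1 0.43 (SE 0.22, adjusted p = 0.1) and Tgm2 -0.10 (SE 0.20, adjusted p = 0.72). The kidney and liver ranges of Mgp did not overlap, while those of the other 3 genes did. The share of all genes with ranges that do not overlap was not counted, and 46.8% of all genes were called in this pair. Between liver and PFC, Mgp was the gene that did not pass the test (-0.18, SE 0.21, adjusted p = 0.43).

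Of the 4 genes listed in all tables, Tgm2 varied least between adipose tissue, kidney and liver, with medians of 205, 70.2 and 57 CPM, and was lowest in the PFC at 10.2 CPM. Adipose over liver it differed by 0.89 on the log2 scale (SE 0.23, adjusted p = 0.0012), and liver over PFC by 3.00 (SE 0.24, adjusted p = 4.1e-15). Timp1 had 0 to 245 CPM in adipose tissue (median 60.2) and medians of 3.92 CPM in ZDF livers, 2.75 CPM in lean kidneys and 3.74 CPM in the PFC, levels of a few reads. Only adipose over PFC could be tested for Timp1 (log2 difference 3.81, SE 0.40, adjusted p = 3.5e-12). Tcf21 was low where it was listed, with a median of 10 CPM in 12 ZDF kidneys (0 to 72.8 CPM) and 6.7 CPM in adipose tissue (0 to 50.7 CPM).

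Over the 6 tissue pairs, 21 of 25 member values passed the test, each in the direction of the order given. Adipose tissue passed over kidney in 4 of 4 members, over liver in 4 of 4 and over PFC in 5 of 5. Kidney passed over liver in 1 of 4 and over PFC in 4 of 4, and liver passed over PFC in 3 of 4. Of all genes, 50.6%, 53.8%, 64.6%, 46.8%, 70.2% and 72.2% passed in those 6 pairs, in either direction, so a call alone does not set these genes apart. The median log2 difference of the members was 3.14, 4.84 and 4.82 for adipose tissue over kidney, liver and PFC, against -0.01, -0.13 and 0.04 over all genes.

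**Figure D1:**
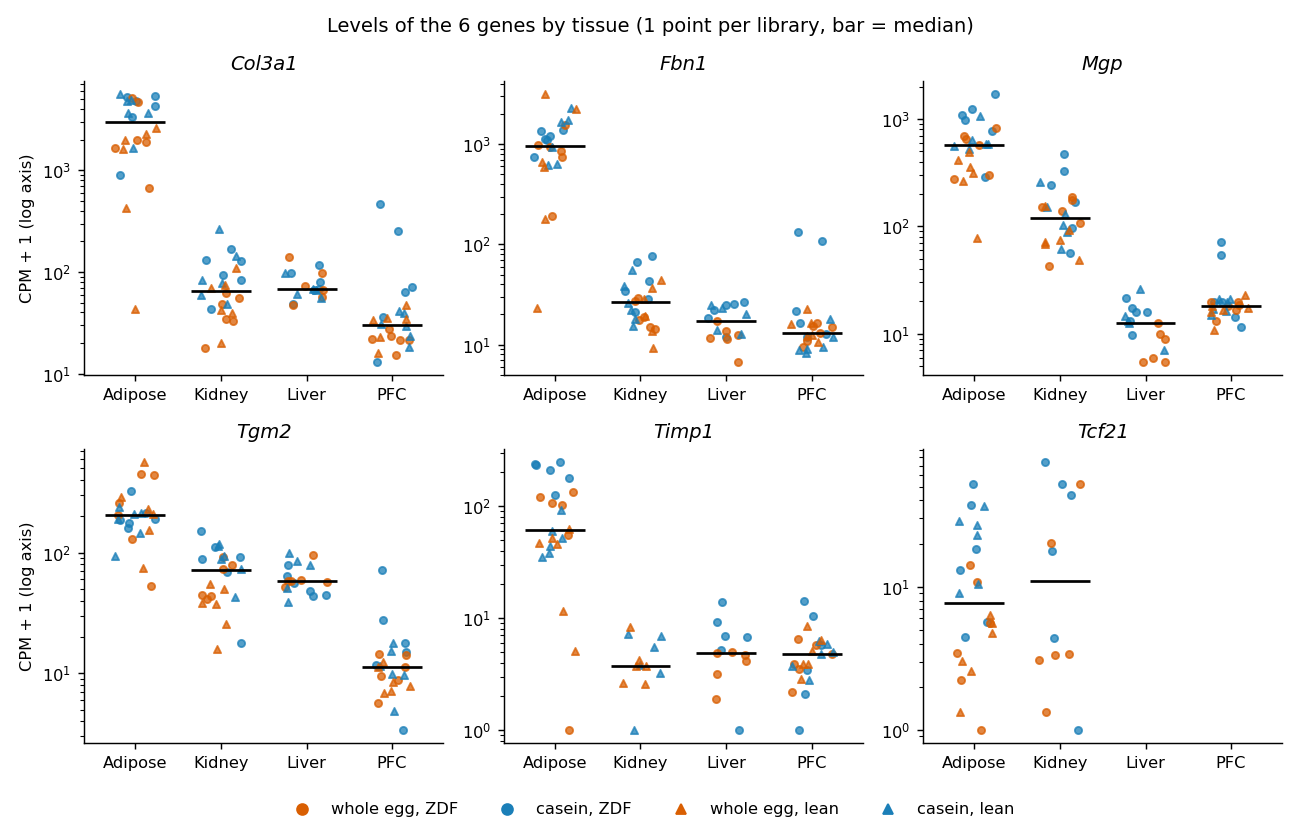
CPM of the 6 genes (log axis, 1 added) in each tissue, 1 point per library and the median as a bar; orange is whole egg, blue is casein, circles are ZDF rats and triangles lean rats. Col3a1, Fbn1, Mgp, Tgm2 and Timp1 have their highest median in adipose tissue, and the PFC holds 2 libraries of Col3a1 (462 and 251 CPM) far above the rest.

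The first question of the study was what whole egg does against casein. Across the 7 tables with both diets, 29 of 37 member values lay below 0 (lower on whole egg), and 12 of the 37 had an unadjusted p under 0.05, all of them lower. Over all genes, the share below 0 was 29.4% to 70.7% in these tables, and 1.34% to 6.58% had an unadjusted p under 0.05 and were lower. The 6 values for which the study picked a gene are among the 12, and of the other 31 values 23 lay below 0 and 6 had an unadjusted p under 0.05. None of the 37 passed an FDR of 5% with limma (edgeR in the ZDF liver). DESeq2 called 5 of them, voom 0, and edgeR on whole reads 0 of the 32 outside the ZDF liver. In 5 of the 7 tables limma called no gene at all, while other tools called some, as given for each table. With the strain of the records as a term, 30 of the 37 lay below 0 and none was called.

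In ZDF livers Fbn1 and Mgp had lower levels on whole egg and Col3a1 and Tgm2 did not. Mgp had 4.45, 6.48 and 11.5 CPM in whole egg livers (lowest, median, highest), against 8.75, 15 and 20.5 CPM in casein livers. On the log2 scale the diets differed by -1.06 (SE 0.36, unadjusted p = 0.0063, adjusted p = 0.13 in edgeR). Fbn1 had 5.7, 11 and 16.1 CPM in whole egg livers, against 10.9, 22.2 and 25.6 CPM in casein livers (-0.88, SE 0.31, unadjusted p = 0.0089, adjusted p = 0.16). For both genes 5 of 6 casein livers lay above every whole egg liver, the exception being rat 14. Without rat 14, the omission that gave the lowest adjusted p, both passed in edgeR (Fbn1 adjusted p = 0.046, Mgp adjusted p = 0.047). Leaving out other rats, the unadjusted p in edgeR rose to 0.027 for Fbn1 (without rat 16) and 0.024 for Mgp (without rat 5). With the strain of the records as a term, edgeR gave adjusted p = 0.35 for Fbn1 and 0.27 for Mgp. With all rats both passed in DESeq2 (adjusted p = 0.046 and 0.034).

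Col3a1, by contrast, had 46.7, 69 and 140 CPM in whole egg livers and 47.1, 73.1 and 117 CPM in casein livers, which is 0.01 on the log2 scale (SE 0.25, adjusted p = 0.99). Tgm2 had 50.9, 57.2 and 94.3 CPM in whole egg livers and 42.4, 51.2 and 78.4 CPM in casein livers (0.19, SE 0.22, adjusted p = 0.79). Timp1 had 0.89, 3.42 and 3.97 CPM in whole egg livers and 0, 5.8 and 13 CPM in casein livers, which are counts too low for a firm value (-1.13, SE 0.57, adjusted p = 0.39). Of the members, 2 of 5 had an unadjusted p under 0.05 and were lower, where 6.58% of all genes did, and 2.93% of all genes were called. These 2 were Fbn1 and Mgp, which the study had picked for a lower level in these same livers. The count is therefore not independent evidence.

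Some other markers moved with these values in the ZDF liver, and some did not. The 4 adipocyte markers with a known ID summed to 22.1 to 72.9 CPM in whole egg livers (median 51.1) and 29.2 to 166 CPM in casein livers (median 132). Lyz2, a macrophage gene, had a median of 16.4 CPM in whole egg and 33 CPM in casein livers, and Apoa1 421 to 1480 CPM in whole egg and 1800 to 3530 CPM in casein livers. Cd52, a leukocyte gene near the floor, had medians of 1.02 CPM in whole egg and 0.861 CPM in casein livers. The epithelial markers with a known ID summed to medians of 226 CPM in whole egg and 220 CPM in casein livers. Among them Krt8 was higher on whole egg (medians 112 and 55.8 CPM) and Cdh1 lower (89.2 and 133 CPM). The part of these markers in the Fbn1 and Mgp values was not tested.

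The 138 genes of 5 lists were looked up (matrix fibres and glycoproteins, fibre processing and crosslinking, proteases and their inhibitors, TGF-beta signal, stromal identity), and 16 had a known ID, 6 of them the genes described here. In the ZDF liver 2 of 3 fibre genes, 2 of 3 crosslinking genes, 4 of 4 protease genes, 4 of 4 TGF-beta genes and 1 of 1 stromal gene lay below 0. The other 10 were all below 0 in the ZDF liver, with a median log2 fold change of -1.72, and 2 were called, where 50.1% of all genes lay below 0 and 2.93% were called: Inhba, an activin subunit (-4.58, SE 0.47, adjusted p = 3.4e-07 in edgeR), and Bmp1, a procollagen protease (-1.68, SE 0.34, adjusted p = 0.003). Lox, which crosslinks collagen, gave -2.01 (SE 0.73, adjusted p = 0.17). None of these 10 was called in the other 6 tables. The study had named these genes on the same samples, so their direction is not independent evidence.

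In the kidney, Col3a1 was lower on whole egg in rats of both genotypes. In ZDF kidneys it had 17, 40.1 and 60.7 CPM on whole egg (lowest, median, highest), against 42.6, 109 and 167 CPM on casein. On the log2 scale this is -1.35 (SE 0.38, unadjusted p = 0.0015, adjusted p = 0.92 in limma). All casein kidneys but that of rat 24 lay above every whole egg kidney. In lean kidneys Col3a1 had 18.9, 54.8 and 109 CPM on whole egg, against 47.6, 79.8 and 261 CPM on casein (-0.87, SE 0.42, unadjusted p = 0.049, adjusted p = 0.99), and there the groups overlapped widely. Without casein rat 8, which had the 261 CPM, the lean value was -0.57 (unadjusted p = 0.17 in limma).

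Tgm2 was the member furthest below 0 in lean kidneys. These had 14.9, 36.8 and 54.1 CPM on whole egg, against 41.9, 89.8 and 116 CPM on casein (-1.28, SE 0.35, unadjusted p = 0.0013, adjusted p = 0.99), and 5 of 6 casein kidneys lay above every whole egg kidney. In ZDF kidneys Tgm2 had 40.3, 57.8 and 90.8 CPM on whole egg, against 16.7, 88.9 and 151 CPM on casein (-0.33, SE 0.42, adjusted p = 0.93). The 16.7 CPM came from rat 5, and without it the value was -0.74 (SE 0.34, unadjusted p = 0.038, adjusted p = 0.96). The diet effect of Tgm2 was not shown to differ between genotypes (interaction 0.95, SE 0.56, adjusted p = 0.98).

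Fbn1 in ZDF kidneys had 13.2, 17.2 and 28.3 CPM on whole egg, against 20.2, 38 and 74.9 CPM on casein (-1.04, SE 0.43, unadjusted p = 0.024, adjusted p = 0.92). In lean kidneys it had 8.23, 23 and 43 CPM on whole egg, against 14.3, 23.1 and 54.5 CPM on casein (-0.26, SE 0.46, adjusted p = 0.99). Mgp gave -0.57 (SE 0.43, adjusted p = 0.92) in ZDF and -0.58 (SE 0.33, adjusted p = 0.99) in lean kidneys.

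Tcf21 was analysed in the ZDF kidneys, and its rats were spread over the whole range in both diets. The whole egg rats 7, 11, 16, 18, 20 and 22 had 19.2, 51.5, 2.06, 0.34, 2.41 and 2.35 CPM, and the casein rats 1, 3, 5, 9, 14 and 24 had 72.8, 42.4, 16.7, 51, 0 and 3.36 CPM. The diets overlapped and the log2 fold change was -1.29 (SE 0.87, adjusted p = 0.92). The levels split by the strain in the sample records, at 16.7 to 72.8 CPM in the 6 rats recorded as ZDF (4 of them on casein) and 0 to 3.36 CPM in the 6 recorded as lean (2 of them on casein). This split was looked at after seeing the data, and the share of all genes that split in this way was not counted. With that strain as a term the diet value was -0.06 (SE 0.60, adjusted p = 1). In the same kidneys Fbn1 had 26.1 to 74.9 CPM in the rats recorded as ZDF and 13.2 to 27.7 CPM in those recorded as lean, and Col3a1 54.5 to 167 CPM and 17 to 81.8 CPM. With the term the diet values were -0.73 (SE 0.43, unadjusted p = 0.1, adjusted p = 1) for Fbn1 and -1.02 (SE 0.36, unadjusted p = 0.0096, adjusted p = 1) for Col3a1. Across these 12 kidneys, with the mean of each diet group taken out, 366 named genes were compared with Tcf21. Those whose log2 CPM ran most like it were Fbn1 (r = 0.84), Col3a1 (r = 0.75) and Ppfibp1 (r = 0.74). This is a description over libraries that differ in depth and in the strain of the records.

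The ZDF kidneys had 2 of 5 members with an unadjusted p under 0.05 and lower, where 2% of all genes did, and the lean kidneys 2 of 5, where 1.95% did. The counts include Col3a1 in ZDF and Tgm2 in lean kidneys, which the study had picked for those values. They are therefore not independent evidence. Neither table had a call at an FDR of 5% (0% of all genes, with 368 and 262 genes at an unadjusted p under 0.05 in limma; DESeq2 called 1 gene in each, voom 0 in the ZDF and 4 in the lean kidney, edgeR on whole reads 0 in both). Lyz2 moved with the ZDF kidney values, at 38.8 to 98.7 CPM on whole egg (median 60.2) and 92.1 to 194 CPM on casein (median 112), and not in the lean kidney, where its medians were 89.5 and 87.2 CPM. The adipocyte sum was 91.8 to 334 CPM on whole egg and 106 to 678 CPM on casein in ZDF kidneys, and 94.6 to 695 CPM on whole egg and 88.8 to 544 CPM on casein in lean kidneys. The 4 epithelial markers with a known ID moved with Tgm2 in lean kidneys, summing to 54 to 160 CPM on whole egg (median 134) and 132 to 412 CPM on casein (median 233), and had medians of 238 CPM on whole egg and 262 CPM on casein in ZDF kidneys. Mbp had medians of 21.6 CPM on whole egg and 99.9 CPM on casein in ZDF kidneys, and of 86.7 CPM on whole egg and 41.1 CPM on casein in lean kidneys. Their part in the result was not tested.

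Over both genotypes, Col3a1 in the kidney gave -1.12 on the log2 scale (SE 0.29, unadjusted p = 0.00049, adjusted p = 0.63 in limma) and Tgm2 -0.82 (SE 0.29, unadjusted p = 0.0071, adjusted p = 0.99). Without rat 5 they gave -1.12 (SE 0.30, adjusted p = 0.8) and -1.04 (SE 0.24, adjusted p = 0.19). Fbn1 gave -0.66 (SE 0.31, unadjusted p = 0.04) and Mgp -0.59 (SE 0.29, unadjusted p = 0.051). Of all genes, 1.85% had an unadjusted p under 0.05 and were lower, and 0.0294% were called. Col3a1 and Tgm2 had been picked by the study on part of these kidneys.

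**Figure D2:**
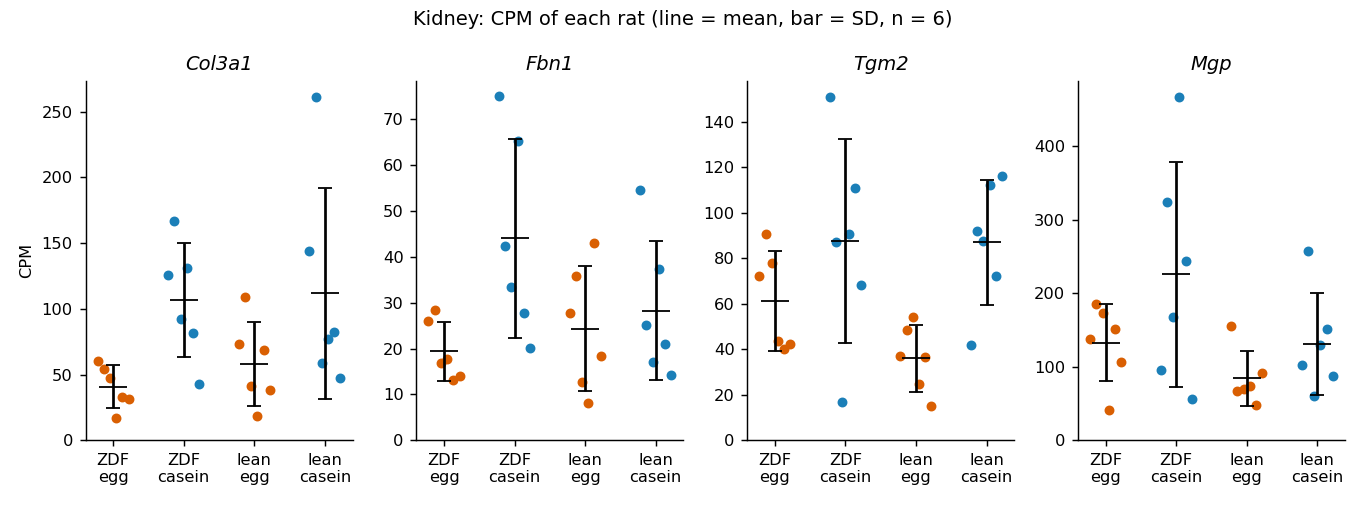
CPM in the kidney of each rat (points), with the mean as a line and the SD as a bar, n = 6 a group; orange is whole egg and blue is casein. Col3a1 averages 40.7 CPM on whole egg and 107 CPM on casein in ZDF kidneys, and Tgm2 averages 36 CPM on whole egg and 86.9 CPM on casein in lean kidneys.

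In adipose tissue Tcf21 was lower on whole egg in both genotypes. The study had picked this gene for its lower level in these same lean samples. Its separation and rank there are therefore not independent evidence. Lean adipose tissue had 0.33, 2.88 and 5.31 CPM on whole egg (lowest, median, highest), against 8.1, 23.8 and 35.8 CPM on casein, so that all 6 whole egg rats lay below all 6 casein rats. The log2 fold change was -2.50 (SE 0.55, unadjusted p = 0.00028, adjusted p = 0.83 in limma), the smallest p of 8788 genes. Without rats 6 and 13 it was -2.12 (SE 0.55, unadjusted p = 0.0012, adjusted p = 1), and DESeq2 called it (-2.84, SE 0.62, adjusted p = 0.0069). ZDF adipose tissue had 0, 3.51 and 13.2 CPM on whole egg, against 3.47, 14.6 and 50.7 CPM on casein (-1.77, SE 0.78, unadjusted p = 0.038, adjusted p = 0.84). Without rat 11, whose 0 counts allow up to 84.8 CPM, it was -1.37 (SE 0.69, unadjusted p = 0.063, adjusted p = 0.61).

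Mgp also separated in lean adipose tissue, at 76.6, 335 and 486 CPM on whole egg against 529, 582 and 1070 CPM on casein (-1.21, SE 0.44, unadjusted p = 0.013, adjusted p = 0.83). Without rats 6 and 13 the difference was -0.73 (SE 0.32, unadjusted p = 0.036, adjusted p = 1). Of all genes in lean adipose tissue, 0.0797% had every whole egg rat below every casein rat. In ZDF adipose tissue Mgp had 276, 608 and 816 CPM on whole egg, against 289, 1030 and 1690 CPM on casein (-0.81, SE 0.44, adjusted p = 0.84), and the groups overlapped through casein rat 5.

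Col3a1 had 42.6, 1820 and 2640 CPM on whole egg in lean adipose tissue, against 1660, 4280 and 5590 CPM on casein (-2.16, SE 0.83, unadjusted p = 0.017, adjusted p = 0.83). Much of that value rested on rats 6 and 13, at 430 and 42.6 CPM, and without them it was -0.85 (SE 0.42, unadjusted p = 0.06, adjusted p = 1). ZDF adipose tissue had 674, 1940 and 5190 CPM on whole egg, against 899, 4540 and 5350 CPM on casein (-0.68, SE 0.57, adjusted p = 0.84; -0.35, SE 0.48, adjusted p = 0.89 without rat 11). Fbn1 had 22.1, 629 and 3140 CPM on whole egg and 613, 1310 and 2310 CPM on casein in lean adipose tissue, and its -1.29 (SE 0.89, adjusted p = 0.84) turned to 0.15 (SE 0.53, adjusted p = 1) without rats 6 and 13. In ZDF adipose tissue Fbn1 gave -0.59 (SE 0.44, adjusted p = 0.84), and -0.19 (SE 0.28, adjusted p = 0.89) without rat 11.

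Timp1 was lower on whole egg in ZDF adipose tissue in 5 of 6 rats against every casein rat. The levels were 0, 104 and 132 CPM on whole egg, against 124, 222 and 245 CPM on casein (-2.10, SE 0.94, unadjusted p = 0.042, adjusted p = 0.84). The 0 belonged to rat 11, and without it the value was -1.01 (SE 0.30, unadjusted p = 0.0037, adjusted p = 0.34). The whole egg rat 18 (132 CPM) and casein rat 5 (124 CPM) were the pair that overlapped. In lean adipose tissue Timp1 had 4.06, 45.2 and 61.2 CPM on whole egg, against 33.8, 46.9 and 91.9 CPM on casein (-0.90, SE 0.58, adjusted p = 0.84; 0.02, SE 0.37, adjusted p = 1 without rats 6 and 13). The interaction of diet and genotype for Timp1 was -1.27 (SE 1.15, adjusted p = 0.91), and -1.09 (SE 0.43, unadjusted p = 0.018, adjusted p = 1) without rats 6, 11 and 13, so a difference between genotypes was not established.

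Tgm2 did not follow the others in adipose tissue. It had 51.8, 230 and 446 CPM on whole egg and 160, 188 and 324 CPM on casein in ZDF rats (0.01, SE 0.48, adjusted p = 1), and 73, 218 and 558 CPM on whole egg and 92.3, 198 and 237 CPM on casein in lean rats (0.28, SE 0.44, adjusted p = 0.92).

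Lean adipose tissue thus had 3 of 6 members with an unadjusted p under 0.05 and lower, where 3.31% of all genes did, and ZDF adipose tissue 2 of 6, where 3.18% did. The counts include Tcf21 in lean and Timp1 in ZDF adipose tissue, which the study had picked for those values. They are therefore not independent evidence. No gene was called in lean adipose tissue in limma (0%, with 458 genes at an unadjusted p under 0.05; DESeq2 called 15 genes, voom 0 and edgeR on whole reads 0), and 0.0129% were called in ZDF adipose tissue. The median of all genes was itself shifted in ZDF adipose tissue, by -0.38 on the log2 scale, against a median of -0.75 over the 6 members. Lyz2 was at 173 to 4950 CPM on whole egg (median 1980) and 2100 to 6200 CPM on casein (median 4940) in ZDF adipose tissue, and at medians of 717 CPM on whole egg and 1120 CPM on casein in lean adipose tissue. Cd52, the other leukocyte marker with a known ID, went the other way, with medians of 7.53 CPM on whole egg and 5.49 CPM on casein in ZDF and 10.5 CPM on whole egg and 2.37 CPM on casein in lean adipose tissue. Its highest values were 670 CPM on whole egg and 120 CPM on casein in ZDF, and 3020 and 9.38 CPM in lean adipose tissue. The epithelial sum reached 1970 CPM in the lean whole egg group, and which cells Cd52 came from was not tested. The adipocyte sum had medians of 20400 CPM on whole egg and 12400 CPM on casein in ZDF and 18000 CPM on whole egg and 23800 CPM on casein in lean adipose tissue. Their part in the member values was not tested.

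Over both genotypes, Tcf21 in adipose tissue gave -2.14 (SE 0.47, unadjusted p = 8.1e-05, adjusted p = 0.6 in limma), and -1.74 (SE 0.44, adjusted p = 0.2) without rats 6, 11 and 13, while DESeq2 called it with all rats (-2.35, adjusted p = 0.0033). Mgp gave -1.01 (SE 0.31, unadjusted p = 0.0029, adjusted p = 0.63), and -0.69 (SE 0.25, adjusted p = 0.44) without them. Timp1 gave -1.50 (SE 0.58, unadjusted p = 0.014, adjusted p = 0.63) and -0.55 (SE 0.24, adjusted p = 0.49) without them, and Col3a1 -1.43 (SE 0.53, unadjusted p = 0.011, adjusted p = 0.63) and -0.60 (SE 0.32, adjusted p = 0.56). Tcf21 and Timp1 had been picked by the study on part of these adipose samples. In this fit 4 of 6 members had an unadjusted p under 0.05 and were lower, where 5.96% of all genes did, and no gene was called (0%; 529 at an unadjusted p under 0.05; DESeq2 called 16 genes, voom 31 and edgeR on whole reads 0).

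**Figure D3:**
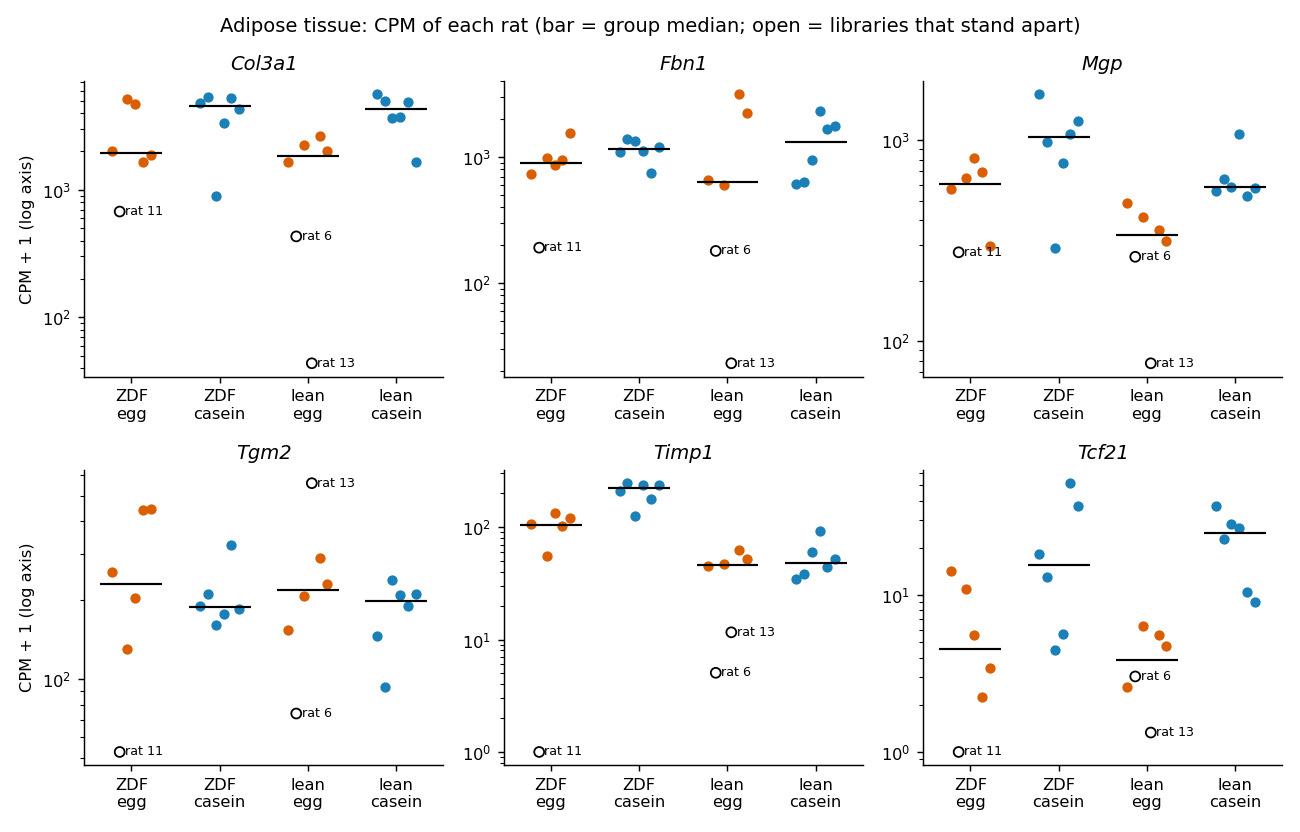
CPM of the 6 genes in adipose tissue (log axis, 1 added), 1 point per rat with the group median as a bar; orange is whole egg, blue is casein, and open circles are rats 6, 11 and 13. In lean rats Tcf21 (0.33 to 5.31 CPM on whole egg) and Mgp (76.6 to 486 CPM on whole egg) lie below every casein rat, and the open circles hold the lowest whole egg values of Col3a1, Fbn1 and Timp1.

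In the ZDF PFC, the values of Col3a1 and Fbn1 below 0 rested mostly on 2 casein libraries. Col3a1 in ZDF rats had 14.2, 20.6 and 26.5 CPM on whole egg (lowest, median, highest), against 12, 66.8 and 462 CPM on casein (-1.90, SE 0.69, unadjusted p = 0.016, adjusted p = 0.56 in limma). The highest casein levels were 462 and 251 CPM in rats 3 and 5, which rest on 26 and 19 deposited counts, and the adipocyte markers summed to 2430 and 1100 CPM in those libraries, against 55.9 to 161 CPM in whole egg rats. Without rats 3 and 5 Col3a1 gave -0.85 (SE 0.40, unadjusted p = 0.047, adjusted p = 0.7). Fbn1 had 8.41, 13.1 and 15.3 CPM on whole egg, against 11, 18 and 132 CPM on casein (-1.23, SE 0.63, adjusted p = 0.56), and -0.24 (SE 0.29, adjusted p = 0.82) without rats 3 and 5. Mgp gave -0.53 (SE 0.49, adjusted p = 0.62) and 0.13 (SE 0.27, adjusted p = 0.9) without them, and Tgm2 -0.72 (SE 0.65, adjusted p = 0.62) and 0.01 (SE 0.45, adjusted p = 1).

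In the lean PFC, where all 12 libraries held 2015473 counts or more, no member had an unadjusted p under 0.05. Col3a1 had 15, 32.9 and 46.5 CPM on whole egg and 17.1, 29.4 and 40.5 CPM on casein (0.02, SE 0.26, adjusted p = 1). Fbn1 had 9.61, 13.3 and 21.5 CPM on whole egg and 7.24, 8.24 and 17.2 CPM on casein, and its 0.49 (SE 0.26, unadjusted p = 0.071, adjusted p = 1) was the only member value above 0.1 there. Of the members, 1 of 5 in the ZDF PFC and 0 of 5 in the lean PFC had an unadjusted p under 0.05 and were lower, where 1.53% and 1.34% of all genes did. No gene passed an FDR of 5% (0% in both; 612 and 409 genes at an unadjusted p under 0.05 in limma; DESeq2 called 176 genes in the ZDF PFC, among them Col3a1, adjusted p = 0.0015, and Fbn1, adjusted p = 0.035, and 0 in the lean PFC; voom and edgeR on whole reads called 0 in both). The median of all genes was 0.37 in the ZDF PFC.

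**Figure D4:**
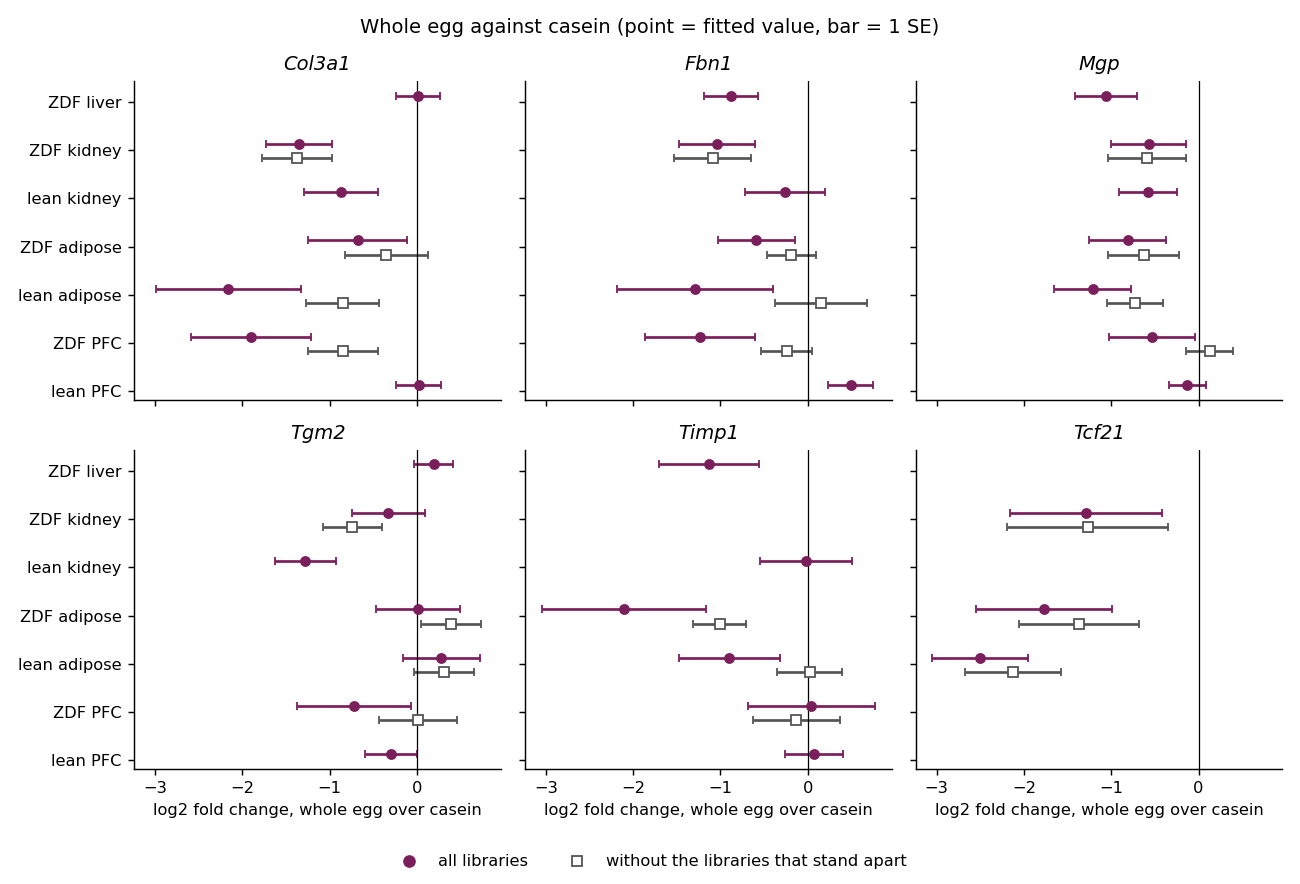
Log2 fold change of whole egg over casein (x axis) for each gene and table (y axis); points are fitted values with 1 SE as a bar, and open squares are the same values without the libraries that stand apart. Of the 37 points, 29 lie below 0, and in lean adipose tissue and the ZDF PFC the squares of Col3a1 (both -0.85) and Fbn1 (0.15 and -0.24) are closer to 0 than the points.

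The second comparison was genotype, ZDF over lean rats on both diets. By the columns, Timp1 in adipose tissue was the only member value with an unadjusted p under 0.05 in adipose tissue, kidney or PFC. Its joint level was 0, 126 and 236 CPM in ZDF rats (lowest, median, highest of 12), against 4.37, 47.3 and 93.5 CPM in lean rats, a log2 difference of 1.29 (SE 0.58, unadjusted p = 0.033, adjusted p = 0.83 in limma). The ZDF rat at 0 was rat 11 and the lowest lean rats were 6 and 13. Without these 3 libraries Timp1 was called, at 52.4, 127 and 236 CPM in 11 ZDF rats and 34.9, 50.8 and 93.5 CPM in 10 lean rats (1.46, SE 0.23, adjusted p = 0.00036). With all libraries it was called in edgeR on whole reads (1.55, adjusted p = 0.015), in DESeq2 (1.57, adjusted p = 5.4e-05) and in voom (1.68, adjusted p = 2.4e-05).

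The genotype label matters for this result. With the strain of the sample records in place of that of the columns, Timp1 gave -0.90 (adjusted p = 0.6), in the other direction. Of all genes, 0.216% (16 genes) were called between genotypes in adipose tissue by the columns and 0 by the records. The 5 other members were not called by either label. By the columns Mgp came closest (0.58, SE 0.31, adjusted p = 0.83), and it gave -0.11 (SE 0.33, adjusted p = 0.93) by the records. By the records Tgm2 came closest (-0.80, SE 0.30, unadjusted p = 0.013, adjusted p = 0.47 in limma). Lyz2 was higher in ZDF adipose tissue too, with medians of 1980 and 4940 CPM in ZDF rats on whole egg and casein, against 717 and 1120 CPM in lean rats. Cd52 had medians of 7.53 and 5.49 CPM in ZDF rats on whole egg and casein, against 10.5 and 2.37 CPM in lean rats. Their part was not tested.

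The promoter of Timp1 is shown since Timp1 was the one member called between genotypes in some fits. The 250 bases before its start, from RefSeq on build GRCr8, lie on the minus strand at chrX:3771123-3771372. The capitals mark TGAGTAA, a variant of the AP-1 motif that is known from the mouse Timp1 promoter, 108 bases before the start.
Timp1: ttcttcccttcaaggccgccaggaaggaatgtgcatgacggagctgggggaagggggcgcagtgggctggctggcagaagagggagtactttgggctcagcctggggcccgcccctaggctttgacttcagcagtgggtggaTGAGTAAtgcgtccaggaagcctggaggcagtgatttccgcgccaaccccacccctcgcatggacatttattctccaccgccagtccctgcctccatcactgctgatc
On either strand, TGAGTAA was in 2.38% of 33469 rat promoters of that length. Timp1 also held 1 GC box (GGGCGG, 142 bases before the start, in 30.5% of promoters) and neither the AP-1 motif TGANTCA (6.34%) nor the E-box CANNTG (65.5%). The promoters of Tcf21 and Fbn1, the other 2 of 3 members matched by symbol, held none of these 4 motifs. The match is a description of the letters and not a bound site.

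In the kidney and PFC no member was called between genotypes (0% of all genes in either; 227 and 190 genes at an unadjusted p under 0.05 in limma; DESeq2 called 3 and 2 genes, voom and edgeR on whole reads 1 each). By the records none was called either, and Col3a1 in the kidney gave 0.95 (SE 0.26, unadjusted p = 0.00073, adjusted p = 0.36), against -0.39 (SE 0.29, adjusted p = 1) by the columns. In casein livers, ZDF over lean, Col3a1 gave 0.19 (SE 0.25, adjusted p = 0.97), Fbn1 0.22 (SE 0.34, adjusted p = 0.97), Mgp 0.20 (SE 0.40, adjusted p = 0.97) and Tgm2 -0.26 (SE 0.27, adjusted p = 0.95), where 0.0123% of all genes were called. Col3a1 had 48.8 to 121 CPM in 6 ZDF and 54.6 to 96.6 CPM in 5 lean livers. By the records Col3a1 gave -0.12 (SE 0.26, adjusted p = 0.9), Fbn1 0.05 (SE 0.35, adjusted p = 0.97), Mgp 0.57 (SE 0.38, adjusted p = 0.63) and Tgm2 0.30 (SE 0.28, adjusted p = 0.74).

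The difference between the diet effects in ZDF and in lean rats (the interaction) did not pass the test in limma for any member. In the PFC it was -1.95 (SE 0.79, unadjusted p = 0.022, adjusted p = 0.49 in limma) for Col3a1 and -1.75 (SE 0.70, unadjusted p = 0.02, adjusted p = 0.49) for Fbn1, both of which DESeq2 called (-3.04, adjusted p = 0.015, and -2.48, adjusted p = 0.046). Without rats 3 and 5 these were -0.86 (SE 0.50, adjusted p = 0.5) and -0.72 (SE 0.36, adjusted p = 0.46), and by the records -1.06 (SE 0.88, adjusted p = 0.92) and -0.95 (SE 0.78, adjusted p = 0.92). Of all genes, 2.93% had an unadjusted p under 0.05 in that direction.

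Within adipose tissue, the named genes whose log2 CPM ran most like each member (Pearson's r over 24 libraries, 402 genes compared) were Cd302 (0.91), Pros1 (0.89) and Cavin3 (0.88) for Col3a1, and Angptl4 (0.87), Lpl (0.86) and Retn (0.85) for Fbn1. Mgp ran most like Col3a1 (0.80), then Pid1 (0.75) and Bphl (0.73). Tgm2 ran like Phgdh (0.81), Dnajc18 (0.78) and Asrgl1 (0.75), and Timp1 like Lpin2 (0.92), Dhcr7 (0.90) and Cerk (0.90). The mean of each genotype and diet group was taken out before these correlations. The libraries still differ in depth, and the genes compared are those that the study named. Without rats 6, 11 and 13 (21 libraries) Col3a1 and Mgp still ran together (0.60), as did Col3a1 and Tcf21 (0.62 against 0.64 with all libraries), but Col3a1 and Fbn1 did not (-0.21 against 0.72 with all libraries). Col3a1 kept Pros1 (0.82) among its closest genes, while none of those given above stayed closest for Fbn1, Mgp, Tgm2 or Timp1. First were then Dbp (0.81) for Fbn1, B4galt6 (0.67) for Mgp, Gstp1 (0.74) for Tgm2 and Gask1b (0.70) for Timp1.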

How the data were processed

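mRNA of 24 rats was read in 4 tissues (96 libraries of 192 in all); microRNA was not used. Per the methods, the authors trimmed reads with BBDUK, ran FastQC, mapped with STAR (Rnor_6.0), made gene counts and dropped genes found in few samples; tool versions were not given in the sources used here. The authors deposited the ZDF liver as raw counts. The other 7 tables were deposited as a score: whole numbers close to counts times a multiplier per library (0.386 to 1.64, correlated with TMM factors at r = 0.949 to 0.996), and whole reads were estimated by dividing by it; these, multiplied and rounded, gave back exactly at least 96% of the values of each library, which holds by construction for multipliers under 1. The authors' comparison tables (fold changes, p-values) were not used.

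Counts had been assumed for all tables. The ZDF liver was tested in edgeR 4.0.16 (quasi-likelihood, TMM), and the scaled values in limma 3.58.1 (trend on log2 CPM with TMM and a prior count of 2, R 4.3.3), where CPM cancels the multiplier; tests were two-sided with Benjamini-Hochberg adjustment. Tissue pairs used the diet and genotype group as a term. Joint models had diet, genotype and, separately, their interaction. Tissue pairs share rats, and the deviations of a rat from its group in 2 tissues had median correlations of -0.01 to 0.04. Labels gave no batch. Values at 0 have a limit of 3 reads, which covers counting error only. Rats shared cages, and p-values measure the spread between these samples.

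The alternatives were DESeq2 1.42.0, voom, RLE factors, a minimum count of 10, a block on the animal, strain from the records and each rat left out. Chosen after seeing the data were edgeR on whole reads or on deposited values, priors of 0.5 and 5, limma in the ZDF liver, the strain of the records as a term within tables and in the casein livers, and leaving out libraries that stand apart in kidneys, joint fits and tissue pairs. All 6 members are named in every table, with 5 lists and cell type markers; members and lists were chosen with earlier results of these data known. Genes most like a member were taken from those with a symbol and a mean of at least 10 CPM. They were ranked by Pearson's r of log2 CPM after the mean of each genotype and diet group was taken out. Tests were tried on simulated data. Figures were drawn with matplotlib 3.10.9 (Python 3.11.15).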

Additional observations from a re-analysis of the deposited data

Results flagged for a closer look

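In 8 of 78 groups of 5 or 6 rats, 1 rat stood far from the others of its group (Dixon's gap test, which marks about 1 group in 20 by chance). In adipose tissue, whole egg rat 11 (ZDF) was lowest for Fbn1, at 190.0 CPM against 740 to 1560 CPM in the other 5, and for Timp1, at 0 CPM against 54.2 to 132 CPM. The casein rat 5 (ZDF) was lowest for Col3a1, at 899 CPM against 3340 to 5350 CPM, and casein rat 23 (lean) likewise, at 1660 CPM against 3630 to 5590 CPM. For Mgp in lean adipose tissue, whole egg rat 13 was lowest, at 76.6 CPM against 262 to 486 CPM, and casein rat 15 highest, at 1070 CPM against 529 to 641 CPM. Tgm2 was lowest in the ZDF kidney of casein rat 5, at 16.7 CPM against 68.3 to 151 CPM, and highest in the ZDF liver of whole egg rat 22, at 94.3 CPM against 50.9 to 58 CPM. Without rat 22 the diet value of Tgm2 in the ZDF liver was 0.02, against 0.19 with it.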

How the results depend on the processing

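Of 77 member results, 53 kept direction and side of the threshold under all alternatives run for them. The 77 hold values of joint fits only where the main fit (limma) gave an unadjusted p under 0.05. All 21 tissue differences past the threshold stayed so with RLE factors, a minimum count of 10, the animal as a replicate block and without the libraries that stand apart. With the replicate block, adipose over kidney gave 2950 calls (2959 without it), adipose over liver 3388 (3456) and Fbn1 in kidney over liver 0.48 (adjusted p = 0.057); it changed no call of a member. edgeR on whole reads called Fbn1 in kidney over liver (0.50), and Tgm2 there gave 0.02 without the libraries that stand apart. The 4 libraries under 200000 counts were those of ZDF adipose rat 11, ZDF PFC rats 3 and 5 and ZDF kidney rat 5, and the genotype values depend on which label is right. Causes of the changes below were not tested.

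Some of these values changed sign, most of them near 0. Those further from 0 were Fbn1 and Timp1 in lean adipose tissue, Tgm2 and Mgp in the ZDF PFC, and, between genotypes, Timp1 in adipose tissue and Tgm2 in the liver. Joint values left out of that count changed sign too. Among them, between genotypes, Col3a1 in the kidney went from -0.39 to 0.95 by the records. Mgp in adipose tissue went from 0.58 to -0.11 and Fbn1 there from 0.21 to -0.78. Col3a1 in the ZDF liver gave -0.02 with DESeq2, RLE factors and limma, -0.03 with the minimum count, -0.17 with voom and -0.22 to 0.16 leaving out 1 rat. Timp1 gave 0.16 in the lean kidney with a prior of 0.5 (leaving out 1 rat, -0.38 to 0.12). In the ZDF PFC it gave -0.63 with DESeq2, -0.03 with RLE, -0.27 with voom, -0.49 and -0.38 with edgeR on whole reads and deposited values, -0.08 with a prior of 5, -0.13 without rats 3 and 5 and -0.50 to 0.43 leaving out 1 rat. In the lean PFC Timp1 gave -0.11 with voom (-0.13 to 0.23 leaving out 1 rat), and Col3a1 -0.15 to 0.21. Tgm2 in ZDF adipose tissue gave -0.06 with RLE, -0.01 with the minimum count, -0.26 with the strain of the records as a term and -0.26 to 0.39 leaving out 1 rat. Mgp in the ZDF PFC gave 0.04 with voom and 0.13 without rats 3 and 5, and Tgm2 0.01 there without them. Fbn1 and Timp1 in lean adipose tissue gave 0.15 and 0.02 without rats 6 and 13. Mgp between genotypes in the liver gave -0.03 to 0.45 leaving out 1 rat (-0.03 without lean rat 15), and by the records Col3a1 gave -0.12 and Tgm2 0.30 there. Timp1 between genotypes in adipose tissue gave -0.90 by the strain of the records, and 1.09 to 1.84 leaving out 1 rat (1.84 without rat 11, adjusted p = 0.002).

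Counts of all genes called depended on the tool. For diet, DESeq2 called 1 gene in each kidney table, 14 in ZDF and 15 in lean adipose tissue and 176 in the ZDF PFC, and over both genotypes 4 in the kidney and 16 in adipose tissue. voom called 4 in the lean kidney, 33 in ZDF adipose tissue, and over both genotypes 4 in the kidney and 31 in adipose tissue. ZDF adipose tissue, with 1 call in limma, had 0 with RLE, the minimum count, a prior of 0.5 and the strain of the records as a term, 3 and 2 with edgeR on whole reads and deposited values, and 7 without rat 11. The kidney over both genotypes, with 2 calls, had 0 with RLE, the minimum count, a prior of 0.5, the strain of the records and without rat 5, and 1 with edgeR either way. Adipose tissue over both genotypes had 1 without rats 6, 11 and 13. Leaving out 1 rat, the counts ran over 191 to 386 in the ZDF liver, 0 to 1 in the ZDF kidney, 0 to 7 in ZDF adipose tissue and 0 to 2 in the joint kidney.

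For genotype, the kidney had 3 calls with DESeq2 and 1 with voom and both edgeR fits (0 to 1 leaving out 1 rat). Adipose tissue, with 16, had 126 with DESeq2, 267 with voom, 44 and 40 with edgeR on whole reads and deposited values, 9 with a prior of 0.5, 0 by the records, 158 without rats 6, 11 and 13, and 8 to 66 leaving out 1 rat. The PFC had 2 with DESeq2, 1 with RLE, voom, both edgeR fits and without rats 3 and 5, and 0 to 1 leaving out 1 rat. The casein livers, with 1, had 25 with DESeq2, 6 with voom, 6 and 3 with edgeR on whole reads and deposited values, 2 with a prior of 5, and 0 to 18 leaving out 1 rat. For the interaction, adipose tissue had 1 with DESeq2, voom and both edgeR fits (0 to 1 leaving out 1 rat), and the PFC 71 with DESeq2, 3 with edgeR on whole reads and 0 to 1 leaving out 1 rat.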
